A study of Mus musculus with 20 samples.

Results

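Hippocampal mRNA levels of 9 Krüppel-like factor genes (Klf2, Klf3, Klf4, Klf6, Klf7, Klf9, Klf10, Klf13 and Klf15) were described in 20 male mice. A probe set, the group of short DNA probes that reads 1 transcript on the array, counted as belonging to a gene where its annotation named that symbol and no other. By this rule the 9 genes, of 18193 genes on the array, had 31 of its 45037 probe sets. Each gene was read from its probe set of the highest mean over the 20 arrays, and the other 22 probe sets served as a check. A filter on low values, an intensity of at least 100 on at least 2 arrays, kept 8 of the 9 genes, all but Klf2. The genes were chosen on the array values of aged impaired and unimpaired wild-type mice, in which Klf4 had stood out, so that contrast is given for them as a description with no test.

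The Krüppel-like factors are transcription factors whose C-terminal zinc fingers bind GC-rich boxes and CACCC boxes in promoters. Their N-terminal parts recruit activators or repressors and set what each factor does at its targets. Several of them are early-response genes that rise and fall quickly after flow, growth factors, hormones or neuronal activity, and in the brain the family is known for roles in blood vessels, in axon growth and in the maturation of hippocampal neurones.

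The study asked which hippocampal transcripts follow ageing and memory status when 11β-HSD1 is missing. This enzyme, encoded by Hsd11b1, regenerates active corticosterone inside cells. Wild-type mice were C57BL/6J, and Hsd11b1-/- (KO) mice carried a targeted disruption of both Hsd11b1 alleles on the same background. There were 4 mice, each with 1 array, in every group. WT_Y and KO_Y mice were wild-type and Hsd11b1-/- mice aged 6 months. The aged mice were 24 months old, and aged wild-type mice were named impaired (WT_AI) or unimpaired (WT_AU) by their choice of the new arm in a Y-maze after a delay, whereas aged Hsd11b1-/- mice (KO_A) formed 1 group. WT_A joins the 8 aged wild-type mice. All mice had been through the maze and were culled 3 days after it ended. Whole hippocampus was taken, so fewer cells of a type and less RNA per cell cannot be told apart.

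Across the series, Hsd11b1 intensity averaged 675 to 705 in the 3 wild-type groups and 48.0 to 60.7 in both knockout groups. All 9 marker genes of hippocampal neurones were kept by this filter. The summed level of 9 choroid plexus markers ran from 1415.7 to 25429.6 between mice. In a fit that estimates a weight for each array, mouse WT_Y_374 (0.252) and mice KO_A_41 (0.289) and KO_A_42 (0.315) had the lowest weights. The number of arrays, 4 a group, limits the precision of every value below.

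The promoters of Klf2 and Klf4, the 2 genes on which the results turn, and of Klf6, the member that varied most with Klf4 in the direction of Klf4, are printed to show which family and signal motifs lie just upstream of their starts. Each is the 250 bases before the RefSeq gene start in GRCm38.p6, 5′ to 3′ on the strand of the gene. Capitals mark every match to the motifs searched on both strands, which were the GC box GGGCGG, the box of the family spelled CACCC, the E-box spelled CACGTG, the cyclic AMP response element TGACGTCA, the palindromic glucocorticoid response element, the MEF2 box and the CArG box. Overlapping matches run together.
Klf2, chr8:72318812-72319061, plus strand: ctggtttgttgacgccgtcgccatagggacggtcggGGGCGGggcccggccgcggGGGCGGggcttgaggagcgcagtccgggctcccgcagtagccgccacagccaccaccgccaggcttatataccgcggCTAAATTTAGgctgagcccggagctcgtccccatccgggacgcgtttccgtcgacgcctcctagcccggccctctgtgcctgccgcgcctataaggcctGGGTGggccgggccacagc
Klf4, chr4:55532476-55532725, minus strand: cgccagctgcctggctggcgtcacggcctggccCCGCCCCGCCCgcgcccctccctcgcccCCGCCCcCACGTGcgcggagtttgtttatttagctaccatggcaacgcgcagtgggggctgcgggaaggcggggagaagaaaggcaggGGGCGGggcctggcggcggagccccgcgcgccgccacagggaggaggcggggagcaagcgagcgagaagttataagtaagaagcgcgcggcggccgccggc
Klf6, chr13:5861239-5861488, plus strand: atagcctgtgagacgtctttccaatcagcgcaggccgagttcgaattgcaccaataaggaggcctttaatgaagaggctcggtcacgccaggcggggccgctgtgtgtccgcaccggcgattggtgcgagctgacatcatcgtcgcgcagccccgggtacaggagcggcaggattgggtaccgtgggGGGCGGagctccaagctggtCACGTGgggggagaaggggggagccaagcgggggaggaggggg

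The Klf2 promoter held 2 GC boxes, 1 CACCC box and 1 MEF2 box at -118 to -109 from the start. MEF2 factors are known to drive Klf2 and Klf4 in endothelium. Of all 32851 promoters of this length, 0.508% held a MEF2 box, and among the 8 members with a promoter in the RefSeq table it was found in Klf2. The Klf4 promoter held 4 GC boxes and 1 CACGTG at -182 to -177. GC boxes were present in 32.7% of all promoters and CACCC boxes in 52.0%. Of the 8 members with a promoter, all but Klf9 held a GC box, with 6 in Klf3. CACGTG was found in 6.02% of all promoters and in those of Klf4, Klf6 and Klf15, the last with 2 copies. Unlike the windows printed, those of Klf15 (chr6:90462326-90462575) and Klf7 (chr1:64121390-64121639) lay inside the spans of their genes (90461043 to 90491803 and 64029448 to 64122345). None of the 8 held the cyclic AMP response element (1.55% of all promoters), the CArG box (1.47%) or the glucocorticoid response element (0.00913%), which says only that these letters were not in these windows. The GC content was 71.2% for Klf2 and 74.0% for Klf4, against a median of 52.4% over all promoters. For the other members it ran from 59.2% (Klf7) to 78.4% (Klf3).

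Klf4, a factor known from endothelium, epithelium and reprogramming to pluripotency and, in neurones, from the restraint of axon growth, was highest in WT_AU mice. Its gene lies at chr4:55527137-55532475. The 4 WT_AU mice read 105.4, 120.5, 142.9 and 162.7 in intensity (mean 132.9 ± 12.6, SEM, n = 4). WT_AI mice read 64.9, 65.9, 74.9 and 81.7 (71.8 ± 3.98), and WT_Y mice 58.4, 59.6, 62.5 and 66.0 (61.6 ± 1.69). Every WT_AU mouse lay above every WT_AI and every WT_Y mouse, and the WT_AI and WT_Y ranges overlapped.

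The Klf4 values of Hsd11b1-/- mice fell mostly between these groups. KO_Y mice read 55.0, 73.4, 87.1 and 93.3 (77.2 ± 8.49), and KO_A mice 71.3, 81.9, 92.1 and 108.4 (88.4 ± 7.90). Of the 16 mice outside WT_AU, 1 (mouse KO_A_42, at 108.4) lay above the lowest WT_AU mouse. In order of mean log2 level the groups ran WT_AU, KO_A, KO_Y, WT_AI and WT_Y, and each group overlapped the next in this order. Klf4 reached 100 on 5 arrays, those of the 4 WT_AU mice and mouse KO_A_42, and so it passed the filter through the group in which it was high.

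The difference that chose Klf4, WT_AI minus WT_AU, was -0.87 ± 0.16 on the log2 scale (SE), or 1.83-fold higher in WT_AU. The second Klf4 probe set, which never reached 100, gave 68.8 to 88.4 in WT_AU and 47.0 to 61.3 in WT_AI, a log2 difference of -0.52 ± 0.12, again with no overlap. By that probe set 2 mice outside WT_AU, mice KO_A_222 (70.9) and KO_A_223 (71.2), lay above the lowest WT_AU mouse. On the log2 scale WT_AU exceeded WT_Y by 1.09 ± 0.14, KO_Y by 0.79 ± 0.22 and KO_A by 0.59 ± 0.19. WT_AI exceeded WT_Y by 0.22 ± 0.09 and lay below KO_A, with a difference of -0.29 ± 0.15, with overlapping ranges in both.

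Klf2, the flow-induced factor of quiet endothelium and of resting T cells and a close relative of Klf4, showed the same separation at low intensity. Its gene lies at chr8:72319062-72321654. WT_AU mice read 94.2, 98.3, 99.7 and 103.1 (98.8 ± 1.84), and WT_AI mice 51, 63.7, 65.1 and 73.5 (63.3 ± 4.64). WT_Y mice read 47.3, 58.6, 69.3 and 73.2 (62.1 ± 5.82). As for Klf4, the lowest WT_AU mouse was above the highest mouse of both other wild-type groups.

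For Klf2, KO_Y mice read 60.3, 76.0, 78.6 and 94.6 (77.4 ± 7.02), and KO_A mice 62.9, 65.1, 66.9 and 79.0 (68.5 ± 3.60). Mouse KO_Y_580, at 94.6, was the 1 mouse outside WT_AU above the lowest WT_AU value. The log2 difference WT_AI minus WT_AU was -0.65 ± 0.11. The single Klf2 probe set reached 100 on 1 array, did not pass the filter and was in no test over the probe sets kept. Array background compresses folds at such low intensities.

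**Figure D1:**
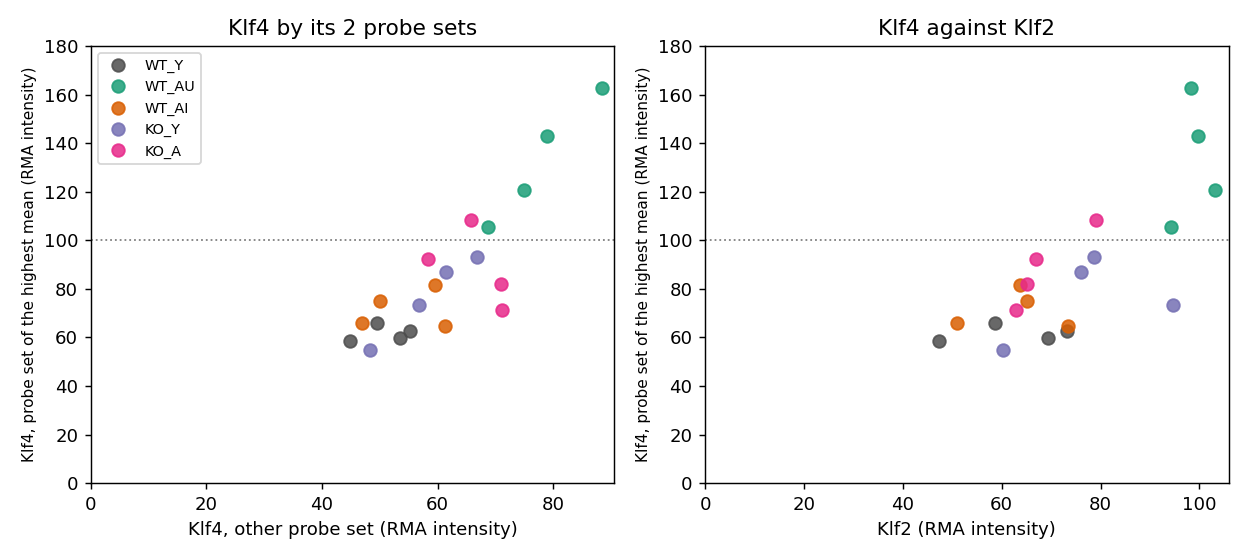
Intensity of the main Klf4 probe set (vertical axis, RMA intensity) in each of the 20 mice against the other Klf4 probe set (left) and against Klf2 (right), with 1 point per mouse coloured by group and the dotted line at 100. The 4 WT_AU mice lie above the line, with mouse KO_A_42 (108.4) as the other mouse above it, and they have Klf2 at 94.2 or more.

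The other 7 members differed little between WT_AI and WT_AU. Their log2 differences ran from -0.11 for Klf15 to 0.05 for Klf7, and the ranges of the groups overlapped in all 7. Without overlap were thus 2 of 9 members, Klf2 and Klf4, both lower in WT_AI. Of the 16995 probe sets kept by the filter, 0.894% lay wholly lower in WT_AI than in WT_AU and 1.28% did not overlap in either direction. Since these values chose the genes, nothing is read from the counts. Over the 31 probe sets of the members, the 3 without overlap were those of Klf2 and Klf4.

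**Figure D2:**
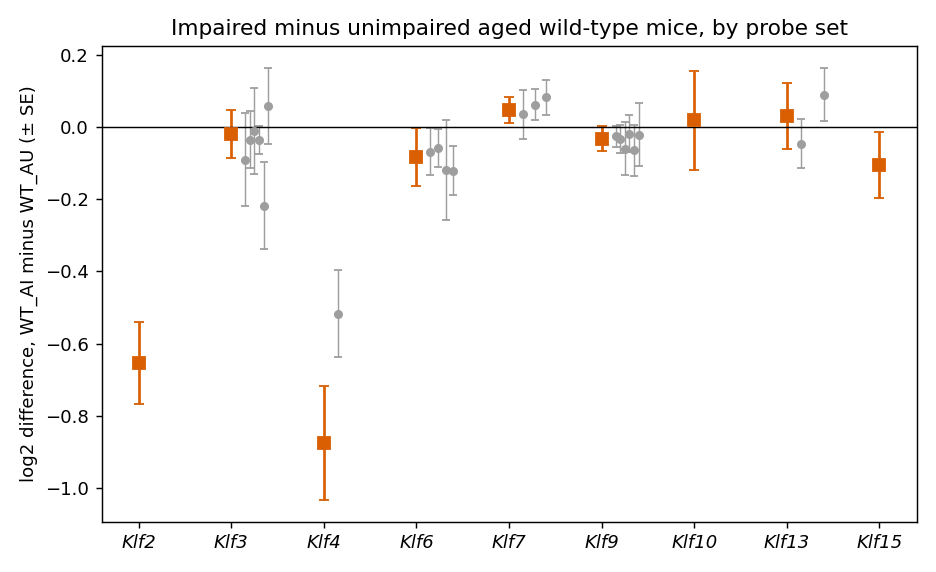
Log2 difference of WT_AI minus WT_AU (vertical axis, ± SE, 4 mice a group) for each of the 31 probe sets of the 9 genes; squares are the probe sets of the highest mean and grey circles the others. Klf4 (-0.87, other probe set -0.52) and Klf2 (-0.65) lie apart from the squares of the other genes, which run from -0.11 to 0.05.

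Outside the contrast that chose the genes, the same 2 members were those without overlap between WT_AU and WT_Y, both higher in WT_AU. Among all probe sets kept, 2.53% lay wholly higher and 4.04% did not overlap in either direction. No member separated WT_AI from WT_Y (3.52% of all probe sets kept did). WT_AU and KO_Y were separated for Klf4 alone of the 9 (6.24% of all), and WT_AU and KO_A for Klf2 alone (2.79% of all). This holds for the probe sets of the highest mean. Of all 31 probe sets of the members, 5 did not overlap between WT_AU and WT_Y and 4 between WT_AU and KO_Y. In WT_AI against WT_Y and in WT_AU against KO_A it was 1 each. Outside Klf2 and Klf4 these were probe sets of Klf7 and Klf9, wholly lower in the aged mice. The comparisons with WT_AU share its mice, and the WT_AU values are those that chose the genes.

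Other genes moved beside Klf4 and Klf2 in the wild-type aged mice. Of 10 endothelial markers tested, 9 were lower in WT_AI than in WT_AU, with a median log2 difference of -0.14. Their summed level was 2273.6 to 2559.5 in WT_AU and 1845.6 to 2319.8 in WT_AI. Among all 16995 probe sets, 9230 were lower in WT_AI and the median was -0.01. The 7 mural markers, of vessel walls, had a median of -0.093, with 5 lower in WT_AI, and a summed level of 3067.9 to 3851.1 in WT_AU and 2788.9 to 3618.0 in WT_AI. No value in the table was at 0 (lowest 5.5), although Pecam1 (mean 23.1), Cdh5 (56.2), Tie1, Emcn and Robo4 of the 16 endothelial markers listed did not pass the filter, and Ly6c1 had no probe set with that symbol alone. The part of these shifts in the Klf4 and Klf2 values was not tested.

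The other lists were described in the same way. Of 19 activity-regulated genes, 18 were lower (median log2 difference -0.31), and so were 14 of 14 glucocorticoid-induced genes (-0.14) and 11 of 11 leptomeningeal markers (-0.08). Among all 16995 probe sets, 9230 were lower. The activity-regulated list includes Arc and Npas4, which the study had reported as lower in WT_AI on these same arrays. All lists were chosen with earlier results of these data known, so nothing is read from these counts. Of the endothelial genes that Klf2 and Klf4 are known to control, 3 of 9 listed were tested, namely Thbd, Vcam1 and Timp3, and the 3 had a median of -0.15. The list does not separate genes that these factors raise from genes that they lower, so nothing about their activity is read from this median. By contrast, 8 of 9 markers of hippocampal neurones were higher in WT_AI, with a median of 0.04. The choroid plexus (-0.0079), microglial (0.0056), astrocyte (0.0095) and oligodendrocyte (-0.0034) markers and the cofactors of the family (-0.017) had medians nearer 0.

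Ageing in wild-type mice was compared over all 8 aged mice, a contrast in which WT_AU and WT_AI count equally. Klf4 exceeded WT_Y by 0.65 ± 0.13 in WT_A on the log2 scale (SE), and all 8 aged mice lay above the WT_Y mean. This difference is given as a description with no test, because the WT_AU and WT_AI values chose Klf4 and the WT_AU values carried it past the filter. It came mostly from WT_AU, which exceeded WT_Y by 1.09 against 0.22 for WT_AI. In the limma fit Klf4 was past the threshold, as were 0.594% of all probe sets kept, and nothing is read from this. Of the 7 other members tested, none was called.

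With 1 mouse left out in turn, the Klf4 difference stayed between 0.60 and 0.71. With the mean of both Klf4 probe sets it was 0.50, and the second probe set alone gave 0.35 ± 0.09.

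Markers of other cell types also differed between WT_A and WT_Y mice. Of 11 microglial markers tested, 11 were above 0 in WT_A against WT_Y and 6 rose (limma, Benjamini-Hochberg), and their summed level went from 5542 to 6188 in WT_Y to 6563 to 10059.8 in WT_AU and 7553 to 8592 in WT_AI. Of 10 endothelial markers 8 were above 0, with a median of 0.06, and of 11 leptomeningeal markers 10, with a median of 0.43; no gene of either list was called. All 9 choroid plexus markers were below 0, with a median of -1.11 and none called, and their summed level was 9043.4 to 25429.6 in WT_Y, 4469.3 to 21745.5 in WT_AU and 4346.9 to 23120.1 in WT_AI. Their median was also below 0 in KO_Y against WT_Y (-1.26), where age does not differ. Of 7 mural markers 5 were above 0, with a median of 0.25 and none called. Astrocyte (0.02), oligodendrocyte (-0.04) and neurone markers (-0.02) had medians near 0, and of these Gfap, the astrocyte filament protein, rose (0.73, limma adjusted p = 0.0204). Between mice of a group, Klf4 and the microglial mean had Pearson r = -0.02 and Spearman rho = -0.11 (permutation p = 0.956, adjusted p = 0.971), and r = -0.16 without the 2 mice farthest from the microglial median. The part of these cell types in the Klf4 difference was not tested.

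In Hsd11b1-/- mice Klf4 was not called between ages (log2 difference 0.21 ± 0.16, limma adjusted p = 0.456). Taken as KO minus wild type, the age effect on Klf4 differed by -0.45 ± 0.21, again a description, since its wild-type term holds the values that chose the gene. For Klf2, fitted without the filter, this difference was -0.53 ± 0.18, with an age effect of 0.36 ± 0.12 in wild-type mice and -0.16 ± 0.14 in Hsd11b1-/- mice (limma adjusted p = 0.608 for the latter). Of the 7 members tested other than Klf4 none was called for the difference between age effects, against 0.0471% of all probe sets kept, and none had an unadjusted p under 0.05, against 10.5% of all.

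**Figure D3:**
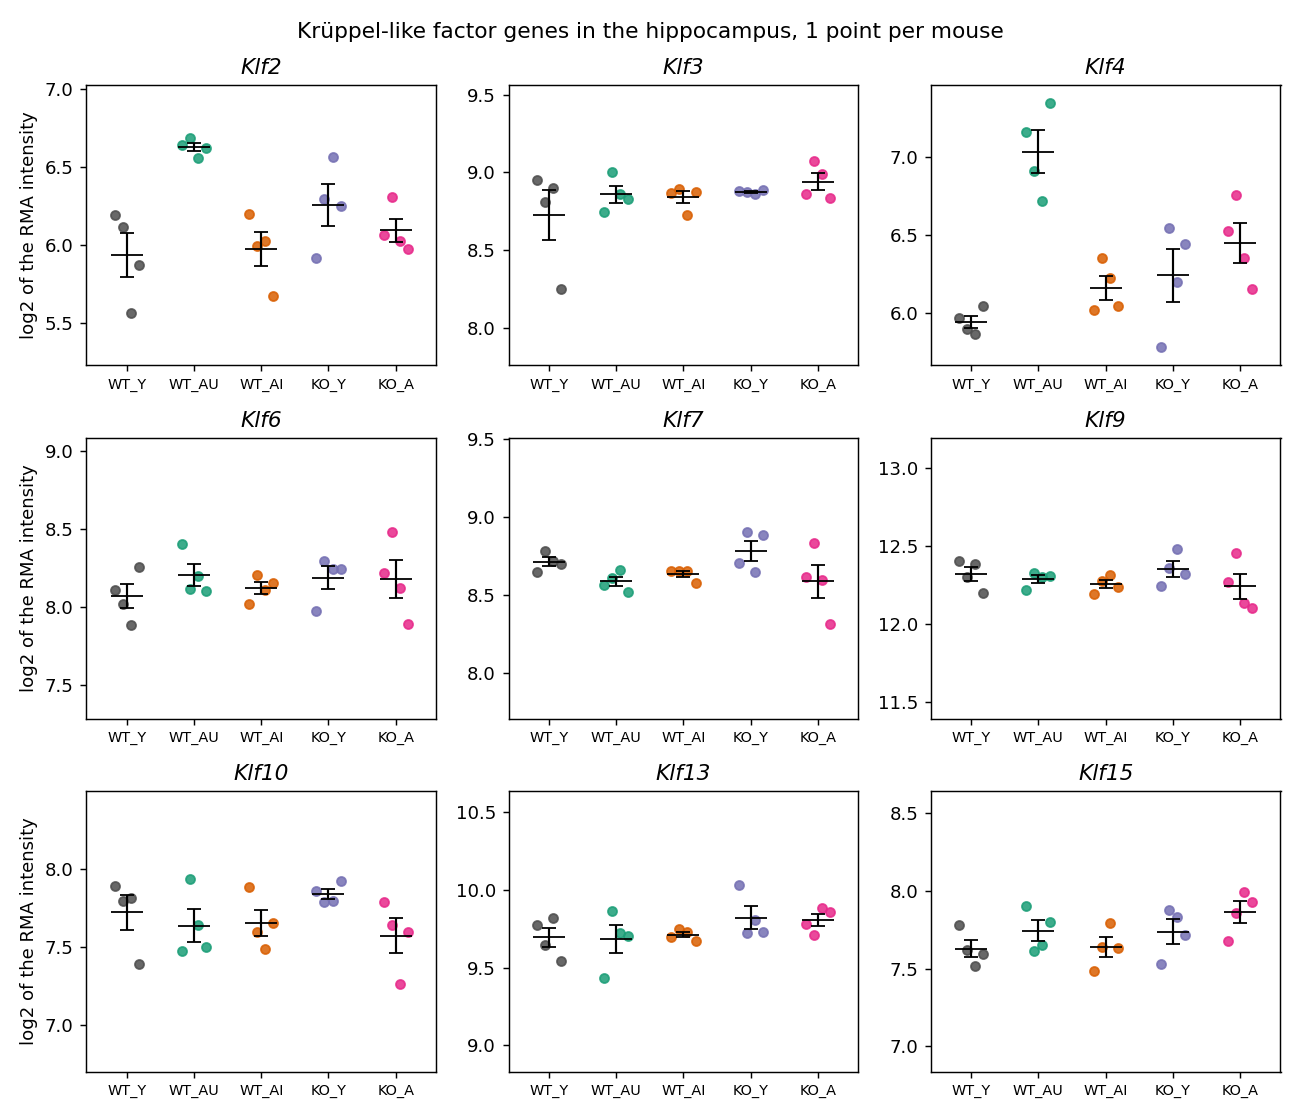
Log2 of the RMA intensity (vertical axes, each spanning 1.8 units) of the 9 genes in the 5 groups, with 1 point per mouse and bars for the mean ± SEM of 4 mice. WT_AU stands above WT_AI for Klf4 and Klf2, and the groups of the other 7 genes overlap.

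The remaining members were taken by their roles. Klf6 and Klf7 are known as factors that favour axon growth, in contrast to Klf4. Klf6 ranged from 236.7 to 358.0 over the 20 mice and was called in no comparison. Klf7 was lower in all 8 aged wild-type mice than the WT_Y mean, by 0.10 on the log2 scale. This difference had an unadjusted p of 0.0202 in the exact permutation test and of 0.166 in limma, whose spread is shared by all 5 groups. After adjustment over all probe sets kept, the limma p was 0.895, and the permutation p had no such adjustment. The other 3 Klf7 probe sets gave -0.11 to -0.16, and in 1 of them all 8 aged mice (291.9 to 348.9) lay below all WT_Y mice (352.9 to 382.1), as in 0.471% of all probe sets kept.

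In Hsd11b1-/- mice Klf7 read 401.1, 416.8, 472.6 and 478.2 at 6 months and 317.9, 386.8, 392.4 and 455.5 at 24 months. The ranges overlapped, and 3 of 4 KO_A mice lay below every KO_Y mouse. The log2 difference was -0.20 ± 0.08 (limma adjusted p = 0.185, exact permutation p = 0.143), and all 4 Klf7 probe sets were below 0, from -0.12 to -0.26. Klf7 was not called, nor was any other of the 8 members tested, against 2.41% of all probe sets kept. With array weights, however, Klf7 (-0.24, limma adjusted p = 0.0447) and Klf9 (-0.21, adjusted p = 0.0368) passed the threshold, while 3708 probe sets were then called in place of 410.

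Klf9, Klf10 and Klf13 are repressors that recruit the Sin3 complex. Klf9 is induced by glucocorticoids and thyroid hormone and takes part in the late maturation of dentate granule neurones. Klf9 intensity was 4409.5 to 5725 over all mice, and its spread within groups was 0.10 on the log2 scale. The KO_A minus KO_Y difference was -0.11 ± 0.07 (limma adjusted p = 0.386), and all 7 Klf9 probe sets were below 0. One of them had KO_A at 3793 to 4222, wholly below KO_Y at 4300.2 to 4814, with a difference of -0.16 ± 0.06 (limma adjusted p = 0.0844), as did 1.77% of all probe sets kept. In the wild type, Klf9 differed with age by -0.05 (adjusted p = 0.975).

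Klf10, first known as an early gene of TGF-β signalling, read 220.4, 222.2, 231.9 and 242.1 in KO_Y and 153.0, 193.5, 199.7 and 220.4 in KO_A. The groups met at 220.4, where the highest KO_A mouse equalled the lowest KO_Y mouse. The difference was -0.27 ± 0.12 on the log2 scale (limma adjusted p = 0.226, exact permutation p = 0.0571, where the smallest p for 4 against 4 mice is 0.0286). Klf7 and Klf10 were the 2 of 8 members with an unadjusted p under 0.05, against 20.9% of all probe sets kept. In KO_A against KO_Y, 8 of 9 markers of hippocampal neurones were also below 0, with a median of -0.24. All astrocyte (median 0.32), oligodendrocyte (0.13), microglial (0.47) and choroid plexus markers (0.99) were above 0. Endothelial (-0.06), mural (-0.19) and leptomeningeal markers (-0.02) had medians below 0. The part of these cell types in the Klf7, Klf9 and Klf10 differences was not tested. Klf13, a close relative of Klf9, ranged from 692.0 to 1044.9 and was called in no comparison.

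Klf3, a repressor that binds CtBP, ranged from 305.0 to 537.7, with the lowest value in mouse WT_Y_374, and was called in no comparison. Klf15 is a glucocorticoid target that controls amino acid and lipid metabolism. It read 204.3, 231.8, 243.8 and 254.7 in KO_A mice and 179.0 to 239.6, with a median of 200.4, in WT_A mice. Of the 4 KO_A mice 2 lay above every aged wild-type mouse. The difference of 0.17 ± 0.08 (limma adjusted p = 0.321, exact permutation p = 0.0646) did not pass the correction. None of the 7 members tested other than Klf4 was called between KO_A and WT_A (0.0294% of all probe sets kept), and Klf15 was the 1 with an unadjusted p under 0.05 (14.8% of all). In that comparison all astrocyte (median 0.20), oligodendrocyte (0.25), microglial (0.13) and choroid plexus markers (0.62) were above 0. All mural (-0.44) and leptomeningeal markers (-0.59) were below 0, and endothelial (-0.08) and neurone markers (-0.07) had medians below 0. The part of these shifts in the Klf15 difference was not tested.

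Between the young groups all 8 members tested lay above 0 in KO_Y against WT_Y, from 0.03 for Klf9 to 0.30 for Klf4, with a median of 0.12 against -0.00 over all probe sets kept. None was called (limma adjusted p = 1.0 for each, against 0.129% of all probe sets called), and none had an unadjusted p under 0.05 (3.71% of all). With 1 mouse left out in turn, Klf3 (down to -0.011) and Klf9 (down to -0.012) fell below 0, both without mouse WT_Y_374. Klf2, outside the test, was 0.32 ± 0.14 higher in KO_Y (fitted without the filter, limma adjusted p = 0.930). Of all 31 probe sets of the members, 23 were above 0 and 8 below, against 48.3% of all probe sets kept above 0. Of 9 markers of hippocampal neurones, 8 were above 0, with a median of 0.12. All 9 choroid plexus markers were below 0 (median -1.26). The other cell type lists had medians from -0.07 (astrocyte) to 0.03 (leptomeningeal). The part of these shifts in the member differences was not tested.

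**Figure D4:**
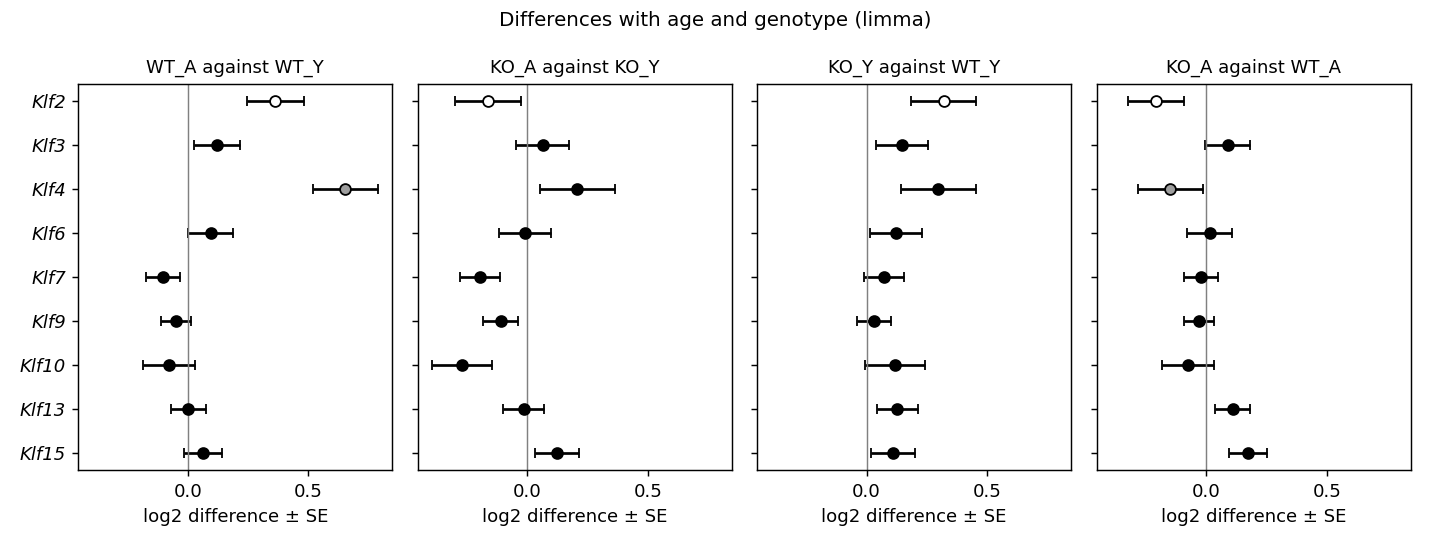
Log2 differences ± SE (horizontal axes) of the 9 genes for age in each genotype and for genotype at each age, from limma; grey marks Klf4 where WT_A is compared, a description since its WT_AU values chose the gene, and open circles mark Klf2, fitted without the filter on low values. Klf4 in WT_A against WT_Y lies at 0.65, and no black point has an adjusted p under 0.05.

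The rest of the family was described in the same way. Of 17 other Klf and Sp genes listed, 7 (Klf5, Klf12, Klf16, Sp1, Sp3, Sp4 and Sp7) had a probe set kept by the filter, and none was called in any of the 5 comparisons tested. In WT_AI minus WT_AU these 7 had a median of 0.02, with 2 below 0. Of 11 cofactors of the family that were tested, Wwp1, a ubiquitin ligase known to target Klf2 and Klf5 for degradation, rose in KO_A against KO_Y (0.30 ± 0.07, limma adjusted p = 0.0399), and no cofactor was called in the other 4 comparisons. Of 14 glucocorticoid-induced genes, Sult1a1 and Pdk4 rose in KO_A against KO_Y, and none was called elsewhere. In KO_A against KO_Y 2.41% of all probe sets kept were called, and nothing is read from these few calls.

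Variation between mice of the same group was largest for Klf4 among the members, with a within-group SD of 0.24 on the log2 scale, above that of 93.6% of the probe sets kept. The SD was 0.21 for Klf2 and 0.10 for Klf9. Klf4 and Klf2 also had the lowest mean intensities of the members (86.4 and 74.0), below the 100 of the filter, so spread and low intensity go together here. Each value was then taken as its deviation from the group mean, and members were set against each other and against 10 marker or response lists over the 20 mice. This gave 36 relations between members and 90 with lists, adjusted together, with p from 100000 permutations within groups.

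No relation passed a Benjamini-Hochberg adjusted p of 0.05 by Pearson's r. The strongest among members was between Klf6 and Klf13, at r = -0.74 and rho = -0.74 (permutation p = 0.00112, adjusted p = 0.0945), with r = -0.65 without 2 mice. Klf4 and Klf6 had r = 0.68 and rho = 0.69 (permutation p = 0.00409, adjusted p = 0.129), and r = 0.56 without mice KO_A_42 and KO_A_223. Klf4 and Klf2 had r = 0.40 and rho = 0.34 (permutation p = 0.0991, adjusted p = 0.431), and r = 0.26 without 2 mice. For Klf4 and the endothelial mean r was 0.50 and rho 0.51 (permutation p = 0.0510, adjusted p = 0.338), and r was 0.40 without 2 mice. The list relation of Klf4 with the lowest permutation p was that with the markers of hippocampal neurones, at r = -0.34 and rho = -0.50 (permutation p = 0.0185, adjusted p = 0.314), with r = -0.52 without 2 mice. By rank, 1 relation passed, that of Klf3 with the oligodendrocyte markers (rho = 0.74, adjusted p = 0.0403; r = 0.52, permutation p = 0.00187, adjusted p = 0.0945; r = 0.49 without 2 mice).

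Over all genes kept, the 5 whose deviations were most like those of Klf4 over the 20 mice were Pcdh11x (r = 0.78), Map6 (0.77), Prkacb (0.75), Ptprf (0.74) and Gtf2ird1 (0.72), out of 9890 genes ranked and given as a description. For Klf2 they were Srp68 (0.81) and Tspyl2 (0.77). Klf3 was most like Sertad4 (0.94) and B3galt5 (0.89), and Klf10 most like H2-DMa (0.92) and Faah (0.86). The first gene for the others was Dpy19l1 for Klf6 (0.87), Srrm2 for Klf7 (0.85), Kmt2e for Klf9 (0.86), Dcaf8 for Klf13 (0.82) and Camk1 for Klf15 (0.83).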

How the data were processed

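Total RNA of whole hippocampus was read from 20 mice, each on 1 Affymetrix array (Mouse Genome 430 2.0). The authors normalised all chips together by the robust multichip average (RMA) with affy; the submitters' processing notes name R 2.8.0. The deposited intensity values are linear, and the median of an array lay between 39.4 and 41.3. This scaling hides a change shared by all transcripts.

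Of the probe sets, 34945 carried 1 symbol, 932 several and 9160 none in the platform annotation. Values were turned to log2, and the 16995 probe sets at 100 or more on at least 2 arrays were fitted with limma 3.58.1 (R 4.3.3), with 5 group means and 1 spread. Tests were two-sided with Benjamini-Hochberg adjustment over these probe sets, called under 0.05. The 5 comparisons tested were WT_A against WT_Y, KO_A against KO_Y, KO_Y against WT_Y, KO_A against WT_A, and the difference between the age effects. Klf4 and Klf2 values in comparisons with WT_A are descriptions, since WT_AU values chose them. Exact permutation tests, correlations and promoter motifs were computed in Python 3.11.15 with scipy 1.17.1.

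The members and gene lists were chosen with earlier results of these data known. Named were all members, other family genes with a mean of at least 100, list genes that were called, and the genes most like each member. The fit was checked on simulated data. Alternatives were no filter, a filter of 4 arrays, groups alone, array weights, median centring, a robust prior, the mean of all probe sets, and each mouse of the groups compared left out. The mice are separate animals. Promoter sequences are from RefSeq (GRCm38.p6), with 8 of 9 members matched.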

Additional observations from a re-analysis of the deposited data

Results flagged for a closer look

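In 3 of the 45 sets of 4 mice (9 genes in 5 groups), 1 mouse lay far from the others of its group, where chance marks about 1 in 20 such sets. Klf3 read 423.2 in mouse WT_AI_49 and 467.9 to 476.4 in the other WT_AI mice. Klf6 read 251.5 in mouse KO_Y_575 and 303.0 to 313.9 in the other KO_Y mice. Klf7 read 381.9 in mouse WT_AI_51 and 401.9 to 403.3 in the other WT_AI mice. None of these values lies in Klf4 or Klf2.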

How the results depend on the processing

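Of 752 values recomputed, 702 kept their direction and their side of the threshold or their size. With array weights the probe sets called were 264 in WT_A against WT_Y (101 without), for KO mice 3708 in KO_A against KO_Y (410), 43 in KO_Y against WT_Y (22), 2181 in KO_A against WT_A (5) and 995 for the difference between age effects (8), and 2 members were called in KO_A against KO_Y (0). With groups compared alone, 14 were called in KO_A against KO_Y and 1 in KO_A against WT_A. With 1 mouse of the groups compared left out, the counts were 54 to 119 in WT_A against WT_Y, for KO mice 98 to 2628 in KO_A against KO_Y, 18 to 22 in KO_Y against WT_Y, 1 to 1413 in KO_A against WT_A and 5 to 420 for the difference, the highest of the last, of KO_A against KO_Y and of KO_A against WT_A being without mouse KO_A_41. Members past the threshold in WT_A against WT_Y were then 0 to 1, the 1 being Klf4, which missed it without any 1 of mice WT_Y_369, WT_Y_371, WT_Y_373, WT_Y_374, WT_AU_57, WT_AI_21 and WT_AI_49 and for which that comparison is no independent test. The WT_AI minus WT_AU difference of Klf4 was -0.52 by its other probe set, and by Spearman's rho 1 relation with the lists passed. The causes were not tested.

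Of 40 member differences, 16 changed sign under an alternative, and none of these was called. With centred arrays Klf13 was -0.0058 in WT_A against WT_Y, but 0.0024 in KO_A against KO_Y and 0.0082 for the difference, and Klf6 0.0065 in KO_A against KO_Y. By the mean of all probe sets Klf3 was -0.0027 in KO_A against KO_Y and -0.0036 in KO_A against WT_A, and Klf6 was 0.11 in KO_A against KO_Y and 0.035 for the difference. With array weights Klf6 was -0.087 in KO_A against WT_A and Klf3 0.032 for the difference. With 1 mouse left out, ranges crossed 0 in WT_A against WT_Y for Klf3 (-0.036 to 0.20) and Klf13 (-0.046 to 0.045), between the ages of KO mice for Klf6 (-0.11 to 0.084) and Klf13 (-0.047 to 0.054), and in KO_Y against WT_Y for Klf3 (-0.011 to 0.22) and Klf9 (-0.012 to 0.068). They also did so in KO_A against WT_A for Klf6 (-0.087 to 0.11), Klf7 (-0.10 to 0.070), Klf9 (-0.10 to 0.015) and Klf10 (-0.15 to 0.030), and for the difference in Klf3 (-0.13 to 0.10), Klf13 (-0.059 to 0.051) and Klf15 (-0.0065 to 0.13). No paired analysis was possible because each mouse is in 1 group and the groups share no animal numbers. Klf2 and Klf4 lie near 100, where array background limits a fold.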
